A study of Mus musculus with 6 samples.

Results

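Hras, Nras, Rras, Rras2 and Mras encode Ras proteins and their close relatives, and Rasgrp1, Sos1, Rasa1 and Nf1 encode proteins that switch Ras on or off. These 9 genes, out of 36161 gene names on the array, were measured by 15 probes, out of 55681 that are not controls. Probes were taken by name alone. Every non-control probe whose gene name on the array was among the 9 was kept, with Hras carried under its older symbol Hras1. The 9 genes themselves were chosen with earlier results of these data known. Hras, Nras and Mras had 3 probes each, numbered here from the brightest to the dimmest, and the other 6 genes had 1 probe each. Of the 15 probes, 13 stood well above background on 3 or more arrays and were tested, and 2 did not.

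The study measured RNA from biopsies of squamous cell carcinomas of the skin (3 samples) and of healthy skin (3 samples) on 1-colour Agilent arrays. All samples came from female mice of the FVB/N strain. Tumors were raised by the carcinogen DMBA on the skin, followed by PMA (the phorbol ester also called TPA) 2 times a week for 6 weeks, another dose of DMBA in week 8 and 14 more weeks of PMA. Healthy skin had received acetone. No skin that was treated but free of tumor was analysed here, so effects of the tumor and of the chemicals cannot be told apart. Whether each biopsy came from its own mouse is not stated, so the p-values reflect the spread between these samples only. Each hybridisation used 0.2 µg of RNA with an RNA integrity number of 9 in both groups.

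Ras proteins are small GTPases that are active while they hold GTP. Exchange factors such as Sos1, which acts downstream of growth factor receptors, and Rasgrp1, which is recruited by diacylglycerol and by phorbol esters, load Ras with GTP. GTPase-activating proteins such as Rasa1 and neurofibromin, the product of Nf1, return Ras to its inactive form. In mouse skin treated with DMBA and a phorbol ester, activating mutations of Hras are a well-known early event. The arrays measure RNA levels and carry no information on such mutations.

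Rras2 and Rasgrp1 showed the largest difference in each direction among the members, and their promoter windows are shown to place the genes beside the values that follow. Each window runs from 250 bases before to 50 bases after the transcript start, read 5′ to 3′ on the strand of the gene, from RefSeq on the build GRCm38.p6. Rras2 lies at chr7:114117732-114118031 on the minus strand and Rasgrp1 at chr2:117342828-117343127 on the minus strand. Capitals mark matches, on either strand, to the GC box GGGCGG.
Rras2: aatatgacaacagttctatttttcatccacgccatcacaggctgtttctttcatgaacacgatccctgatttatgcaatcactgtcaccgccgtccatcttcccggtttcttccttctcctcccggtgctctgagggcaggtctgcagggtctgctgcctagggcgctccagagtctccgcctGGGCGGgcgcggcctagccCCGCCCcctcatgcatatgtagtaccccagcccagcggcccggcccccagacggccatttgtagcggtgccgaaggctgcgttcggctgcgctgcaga
Rasgrp1: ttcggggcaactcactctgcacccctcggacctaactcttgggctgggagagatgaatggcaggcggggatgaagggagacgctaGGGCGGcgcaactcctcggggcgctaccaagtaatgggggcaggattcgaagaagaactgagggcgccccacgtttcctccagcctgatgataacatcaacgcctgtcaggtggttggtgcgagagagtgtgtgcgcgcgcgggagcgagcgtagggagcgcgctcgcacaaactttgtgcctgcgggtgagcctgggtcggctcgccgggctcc
The brightest Hras probe, A_51_P357664, is shown because the mean differences of the tested Hras probes had opposite signs. It lies in the coding sequence, at chr7:148377296-148377355 on the minus strand of the build mm9 given by the array files.
Hras probe 1: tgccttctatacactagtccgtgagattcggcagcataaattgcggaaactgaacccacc

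RefSeq windows were found for all 9 genes, 11 windows in all because Rras has 3. The GC box stood in 7 of the 11 windows, against 35.7% of all 32851 mouse windows of the same length. In Rras2 the matches began 67 and 48 bases before the transcript start, and in Rasgrp1 the single match began 165 bases before it. The AP-1 motif TGANTCA, known as the TPA response element, was in 0 of the 11 windows and in 7.81% of all windows. The motif TATAAA was in 0 of the 11 windows and in 13.6% of all windows. CCAAT was in 4 of the 11, from 3 genes, and in 37.4% of all windows. Overlapping windows of Rras share a CCAAT match. All 4 motifs were searched on both strands. The GC content of the windows lay between 52.3% for Nras and 75.7% for Nf1, beside a median of 52.7% over all windows. These matches describe letters in a window and were not tested against the RNA levels.

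Arrays of a group resembled each other more than arrays of different groups, with Pearson correlations across the tested probes, which are not independent replicates, of 0.959 to 0.967 within tumors, 0.934 to 0.971 within healthy skin and 0.822 to 0.897 between the groups. Healthy skin 3 gave the weakest array, whose 75th percentile of signal was 242, against 525 to 897 on the other 5. The tumor 1 array had the highest local background, with a median of 85, against 23 to 26 on the other 5, and 48.7% of its spots were well above background, against 57.4% to 65.4%. All 6 arrays shared 1 slide, and its first row held healthy skin 1 and 2 but no tumor. Of the 9 keratinocyte markers, all were measured in both groups, with summed signals of 1226 to 1250 times the 75th percentile in tumors and 1209 to 1875 times in healthy skin. Of these 9, Dsg3 was 2.70-fold higher in tumors, Krt1 was 7.74-fold and Krt10 10.4-fold lower, and the other 6 did not pass. Markers of muscle and fat were lower in tumors. The 10 skeletal muscle markers, all 10 lower, summed to 34.1 to 87.5 in tumors and 1130 to 1638 in healthy skin, and the 8 adipocyte markers, 7 of them lower, to 3.23 to 29.6 in tumors and 78.1 to 382 in healthy skin. Of 6 neutrophil markers, 5 were higher in tumors, and Csf3r, with a log2 difference of -0.76, did not pass. Their summed signal was 502 to 765 in tumors and 205 to 264 in healthy skin. On each healthy skin array Csf3r was the brightest of the 6, and on each tumor array S100a9 was, so the sums rest largely on these genes.

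Among the Ras genes, Rras2 and one probe of Nras were higher in tumors, and among the regulators Rasgrp1 was lower. These 3 of 13 tested probes passed a Benjamini-Hochberg adjusted p under 0.05 in limma, 2 higher and 1 lower. That is 23.1% of the members' tested probes, beside 26.0% of all 34297 probes tested, of which 10.1% were higher and 16.0% lower. The remaining 10 probes did not pass. Levels are given as log2 of the signal minus the log2 of that array's 75th percentile, so that 0 is the 75th percentile itself, and differences are tumor minus healthy skin. The median difference of all tested probes was -0.18 on this scale, -0.0034 with scaling to the median of the tested probes, and 0.71 with scaling to the spike-in controls. The calls split into 38.6% higher under the 75th percentile, 50.1% under median scaling and 71.6% under spike-in scaling.

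**Figure D1:**
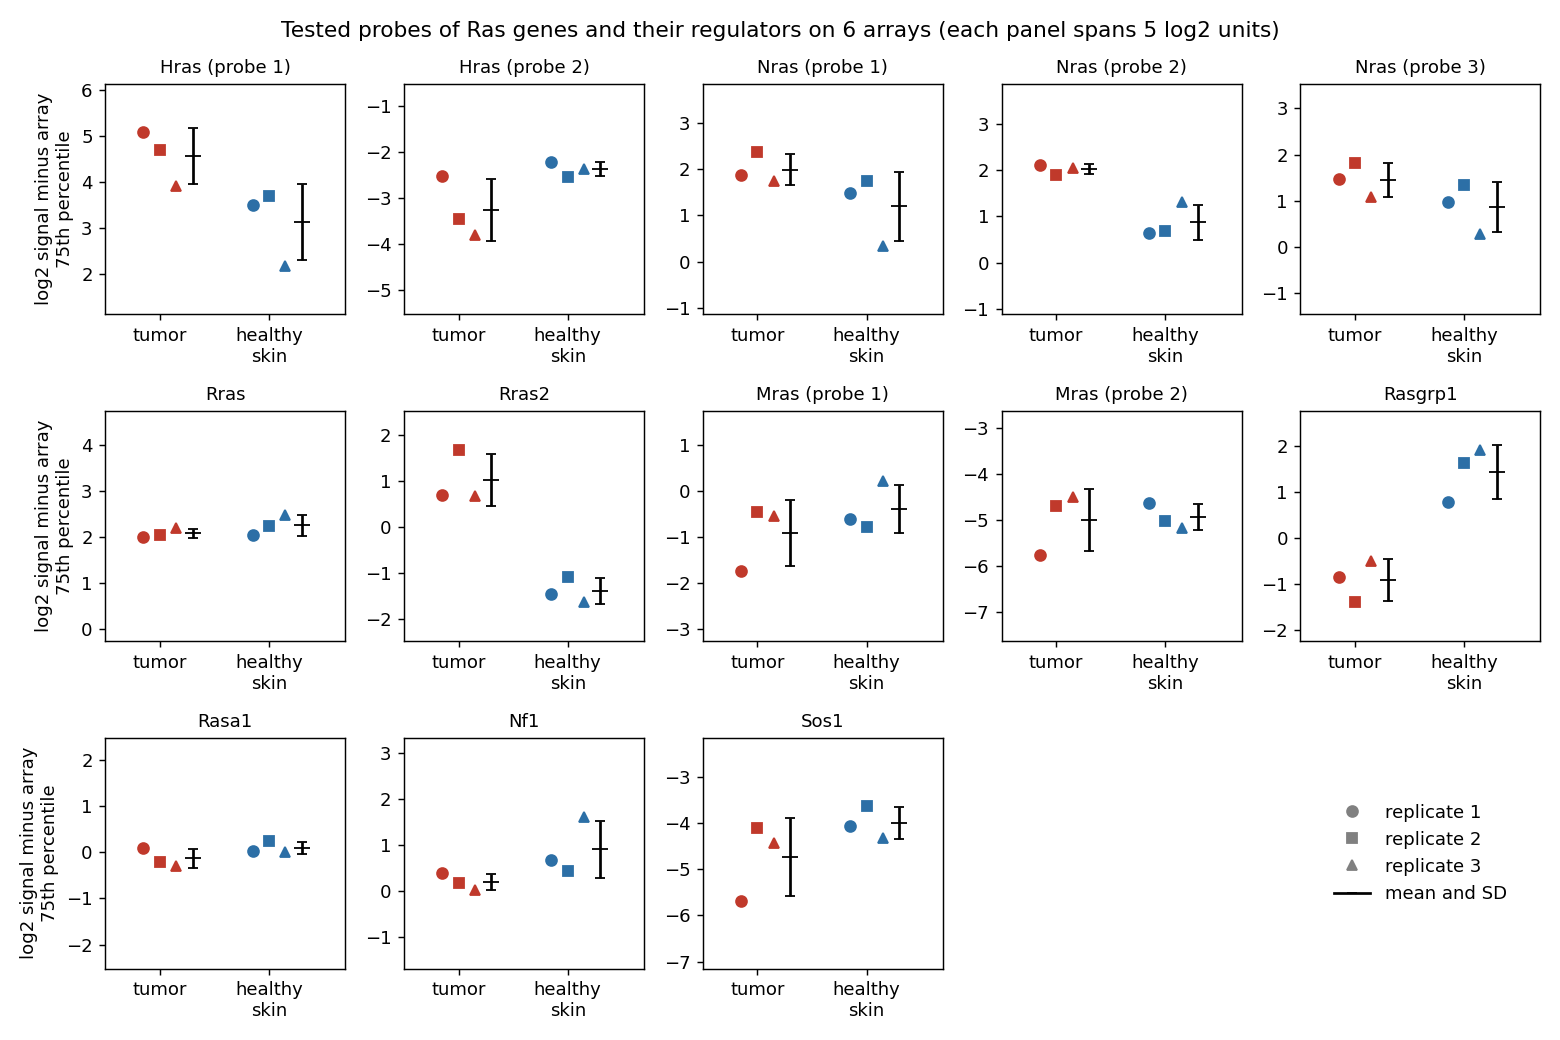
Log2 signal minus the array's 75th percentile (vertical axis) for the 13 tested probes, in tumors (left, red) and healthy skin (right, blue). Points are arrays and bars are the mean and SD of 3 arrays; Rras2 in tumors lies between 0.68 and 1.67, above all healthy skin values, and Rasgrp1 in tumors between -1.39 and -0.50, below all of them.

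Rras2, also called TC21, is a Ras relative that signals to some of the same effectors as Hras. Its level was 0.70, 1.67 and 0.68 in tumors, against -1.46, -1.07 and -1.62 in healthy skin. Every tumor lay above every healthy skin sample, and tumor 2 was the highest. The means were 1.02 ± 0.56 in tumors and -1.39 ± 0.28 in healthy skin (SD, n = 3 each). Rras2 rose by 2.40 ± 0.36 on the log2 scale (SE), or 5.29-fold, with a 95% confidence interval of 1.55 to 3.25 and an adjusted p of 0.00449 in limma. It passed under all 19 alternatives tried, with differences of 2.05 to 3.29, among them 2.64 with slide row as a block, which leaves healthy skin 3 alone against the 3 tumors. The probe, A_52_P558859, lies at chr7:121191321-121191380 on the minus strand of mm9, and its promoter window is the first of those printed above.

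Nras was read by 3 probes whose means were all higher in tumors, but 1 of them passed the test. Nras probe 2, A_52_P649296 at chr3:102868451-102868510, gave 2.12, 1.90 and 2.05 in tumors, against 0.64, 0.68 and 1.32 in healthy skin. The groups did not overlap, and the tumors lay close to each other while healthy skin 3 stood above its group. The means were 2.03 ± 0.11 in tumors and 0.88 ± 0.38 in healthy skin (SD, n = 3 each). The probe rose by 1.15 ± 0.30 (SE), or 2.21-fold, with an interval of 0.45 to 1.85 and a limma adjusted p of 0.0296. This call was lost under 9 of 18 alternatives, including those without healthy skin 1 (adjusted p 0.0961), healthy skin 2 (0.0969), tumor 1 (0.0745), tumor 2 (0.0744) or tumor 3 (0.0754). With slide row as a block, which leaves healthy skin 3 alone against the 3 tumors, the difference was 0.71.

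Nras probe 1 gave 1.87, 2.37 and 1.74 in tumors, against 1.49, 1.75 and 0.34 in healthy skin. The groups overlapped slightly, since healthy skin 2 lay above tumor 3, and healthy skin 3 was far the lowest. The difference was 0.80 ± 0.42, with an interval of -0.19 to 1.79 and a limma adjusted p of 0.196. It was 0.37 without healthy skin 3, and 1.65 with slide row as a block, which leaves healthy skin 3 alone against the 3 tumors. Nras probe 3 gave 1.46, 1.81 and 1.08 in tumors, against 0.98, 1.34 and 0.27 in healthy skin. Here too the groups overlapped and healthy skin 3 was the lowest. The difference was 0.59 ± 0.37, with an interval of -0.28 to 1.46 and a limma adjusted p of 0.267, and it was 0.29 without healthy skin 3.

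Neither tested probe of Hras passed, and their mean differences had opposite signs. Hras probe 1, the brightest and the one printed above, gave 5.08, 4.71 and 3.91 in tumors, against 3.51, 3.71 and 2.19 in healthy skin. Every tumor lay above every healthy skin sample, although tumor 3 and healthy skin 2 were close and healthy skin 3 was far the lowest. The means were 4.57 ± 0.60 in tumors and 3.13 ± 0.83 in healthy skin (SD, n = 3 each). The difference was 1.43 ± 0.50 (SE), or 2.70-fold, with an interval of 0.28 to 2.59, a p of 0.0217 and a limma adjusted p of 0.0698, so it did not pass. It passed under 4 of 19 alternatives: normexp background correction (limma adjusted p 0.0384), array weights (0.0435), the replicate block and slide row as a block. The replicate block matches samples by number, though the numbers were not taken to pair samples. Slide row as a block leaves healthy skin 3 alone against the 3 tumors, and the difference there was 2.38. Without healthy skin 3 the difference was 0.96, with a limma adjusted p of 0.130.

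Hras probe 2, A_66_P139159 at chr7:148375031-148375090, gave -2.52, -3.45 and -3.81 in tumors, against -2.23, -2.54 and -2.37 in healthy skin. Tumors 2 and 3 lay below all healthy skin samples, and tumor 1 lay within their range. The difference was -0.88 ± 0.38, with an interval of -1.77 to 0.01 and a limma adjusted p of 0.125. Without tumor 1 it was -1.25, with a limma adjusted p of 0.0389, and in the deposited values it was -0.36. Hras probe 2 was well above background on every array but dim. Its signals before scaling were 47.0 to 113, against 1103 to 22129 for probe 1. Hras probe 3 was not well above background on any of the 6 arrays and was not tested.

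The Hras probes were also compared within each array, where scaling by a constant per array cancels. There probe 1 minus probe 2 was 7.60, 8.16 and 7.73 in tumors, against 5.74, 6.25 and 4.55 in healthy skin. The groups did not overlap, and the means differed by 2.32, or by 2.24 with normexp background correction and 1.63 in the deposited values. An exact two-sided permutation test gave p = 0.1, the smallest that 3 arrays against 3 allow, and 0.5 after adjustment over the 5 probe pairs compared, so the test could not have passed the threshold. The array files give different transcript records for these probes.

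The other probe pairs gave smaller differences. Nras probe 1 minus probe 2 was -0.25, 0.46 and -0.32 in tumors, against 0.85, 1.07 and -0.97 in healthy skin, with an exact permutation p of 0.8. Nras probe 2 minus probe 3 was 0.66, 0.10 and 0.97 in tumors, against -0.34, -0.66 and 1.05 in healthy skin, with an exact permutation p of 0.4. In both pairs healthy skin 3 stood on the far side of the tumors from the other healthy samples. Nras probe 1 minus probe 3 differed by 0.21 between the groups, with an exact permutation p of 0.2. Mras probe 1 minus probe 2 was 4.02, 4.25 and 3.97 in tumors, against 4.02, 4.24 and 5.38 in healthy skin, with an exact permutation p of 0.4, and again healthy skin 3 stood apart.

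**Figure D2:**
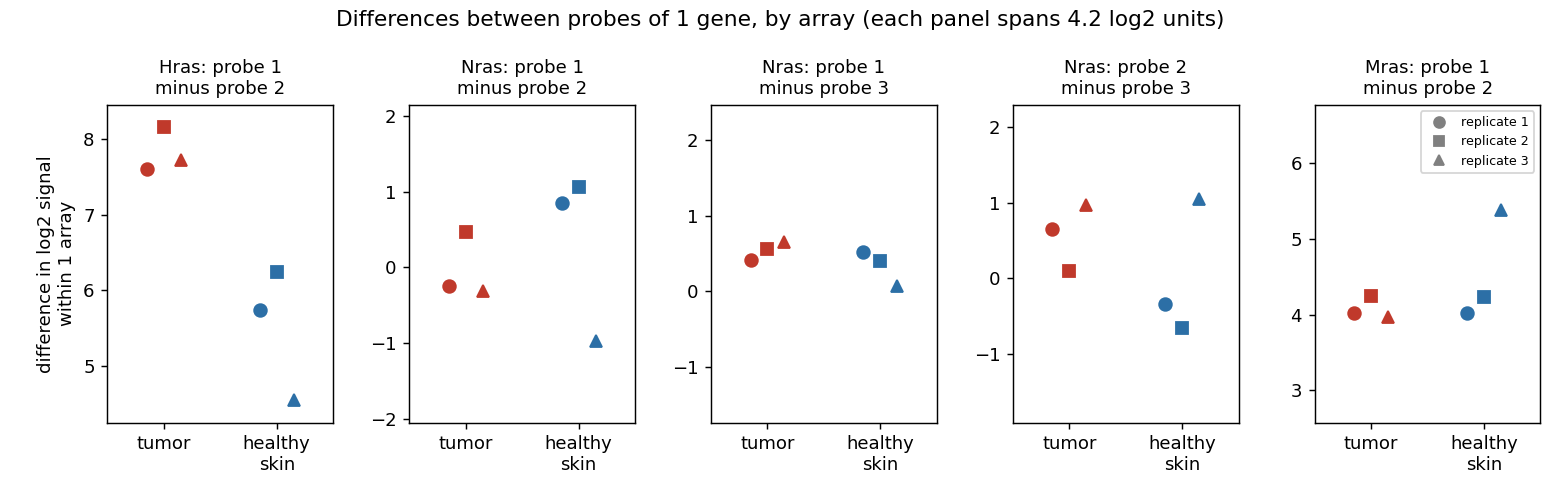
Difference in log2 signal between 2 probes of the same gene on the same array (vertical axis), in tumors (left, red) and healthy skin (right, blue), 1 point per array. For Hras the tumors lie between 7.60 and 8.16 and healthy skin between 4.55 and 6.25; the groups overlap in the 4 other pairs.

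Rras and Mras, relatives of Hras with roles in adhesion and in signaling to Raf, had no probe that passed. Rras gave 2.0, 2.06 and 2.20 in tumors, against 2.04, 2.25 and 2.48 in healthy skin. The ranges overlapped, with healthy skin 2 and 3 above every tumor. The difference was -0.17 ± 0.27, with an interval of -0.80 to 0.46 and a limma adjusted p of 0.660, and its sign turned under median scaling (0.0050) and under spike-in scaling (0.72).

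Mras probe 1 gave -1.74, -0.46 and -0.54 in tumors, against -0.62, -0.78 and 0.21 in healthy skin. Tumor 1 was the lowest of all and healthy skin 3 the highest. The difference was -0.52 ± 0.45, with an interval of -1.57 to 0.53 and a limma adjusted p of 0.418, and without those 2 arrays it was 0.20. Mras probe 2 was well above background on 2 tumor and 2 healthy skin arrays, and it gave -5.76, -4.71 and -4.51 in tumors, against -4.63, -5.02 and -5.17 in healthy skin. The groups overlapped, with tumor 1 the lowest. The difference was -0.05 ± 0.39, with an interval of -0.97 to 0.87 and a limma adjusted p of 0.934. Mras probe 3 was not well above background on any array and was not tested. Mras was first described in muscle, and all 10 skeletal muscle markers were lower in tumors, with the summed signals given above. Their part in the Mras values was not tested.

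Among the regulators, Rasgrp1 was lower in tumors, and the differences of Sos1, Rasa1 and Nf1 did not pass. Rasgrp1 is an exchange factor best known in T cells, and it is also made by keratinocytes. It gave -0.84, -1.39 and -0.50 in tumors, against 0.79, 1.62 and 1.91 in healthy skin. Every tumor lay below every healthy skin sample. The means were -0.91 ± 0.45 in tumors and 1.44 ± 0.58 in healthy skin (SD, n = 3 each). Rasgrp1 fell by 2.35 on the log2 scale, with an SE of 0.40, which is 5.10-fold lower, with an interval of -3.28 to -1.42 and a limma adjusted p of 0.00669. It passed under 18 of 19 alternatives and did not with spike-in scaling, where the difference was -1.46 and the limma adjusted p 0.184. With slide row as a block it was -2.82. The probe, A_55_P1969650, lies at chr2:117105803-117105862 on the minus strand of mm9.

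Some T cell markers were also lower in tumors. Of 8 markers tested, 4 were lower and none higher, and their summed signal was 2.56 to 5.34 in tumors and 9.03 to 23.3 in healthy skin, without overlap. None of the 8 was below background on all arrays of a group. In biopsies of mixed cells, fewer cells of a type and less RNA per cell cannot be told apart. The part of T cells in the Rasgrp1 difference was not tested.

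Sos1, the exchange factor that couples receptors to Ras, was dim and was well above background on 2 tumor and 2 healthy skin arrays. It gave -5.68, -4.10 and -4.42 in tumors, against -4.06, -3.62 and -4.31 in healthy skin. The groups overlapped, with tumor 1 the lowest. The difference was -0.74 ± 0.46, with an interval of -1.80 to 0.33 and a limma adjusted p of 0.260. Leaving out 1 array gave -1.06 (without tumor 2) to -0.26 (without tumor 1), and the deposited values gave -0.18. Rasa1, a GTPase-activating protein, gave 0.10, -0.20 and -0.30 in tumors, against 0.03, 0.25 and 0.00 in healthy skin. The 6 values lay close together and overlapped. The difference was -0.23 ± 0.27, with an interval of -0.86 to 0.40 and a limma adjusted p of 0.552.

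Nf1 gave 0.40, 0.18 and 0.04 in tumors, against 0.69, 0.44 and 1.61 in healthy skin. The groups did not overlap, though tumor 1 and healthy skin 2 were nearly level and healthy skin 3 was far above the rest. The difference was -0.71 ± 0.37, with an interval of -1.57 to 0.15 and a limma adjusted p of 0.185. It was -0.36 without healthy skin 3 and -1.41 with slide row as a block, which leaves healthy skin 3 alone against the 3 tumors. In RefSeq 6 other genes overlap Nf1 and 3 overlap Sos1, which bears on these probes only if they read RNA of those genes, and this was not tested. Across the members, 5 of 13 probes had groups that did not overlap, beside 49.8% of all probes.

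**Figure D3:**
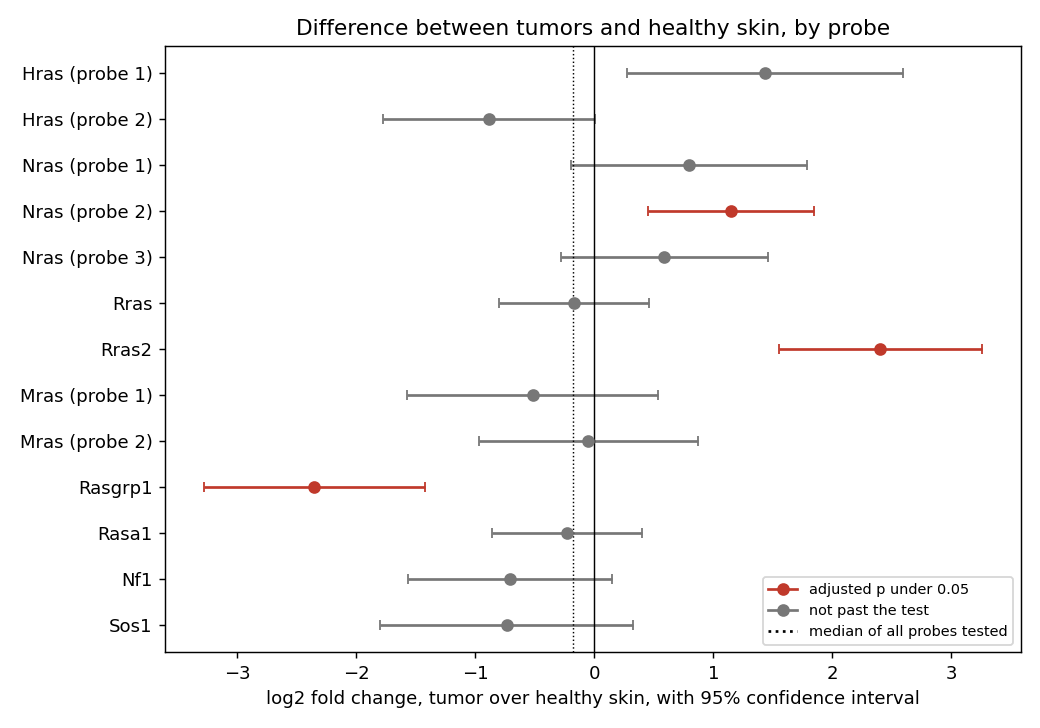
Log2 difference, tumor minus healthy skin (horizontal axis), with its 95% confidence interval, for each tested probe; red marks an adjusted p under 0.05, and the dotted line is the median of all probes, -0.18. The intervals of Rras2 (1.55 to 3.25) and Nras probe 2 (0.45 to 1.85) lie above 0 and that of Rasgrp1 (-3.28 to -1.42) below it; that of Hras probe 1 (0.28 to 2.59) also lies above 0, though its adjusted p was 0.0698.

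Under the 6 ways of scaling or taking the values, Rras2, Hras probe 1 and the 3 Nras probes stayed higher in tumors and Rasgrp1 stayed lower. The differences of Rras, Rasa1, Nf1, Sos1, Hras probe 2 and both Mras probes turned positive with spike-in scaling, under which the median of all probes was 0.71. Of these 7 probes, Mras probe 2 (0.84) and Rras (0.72) lay above that median.

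**Figure D4:**
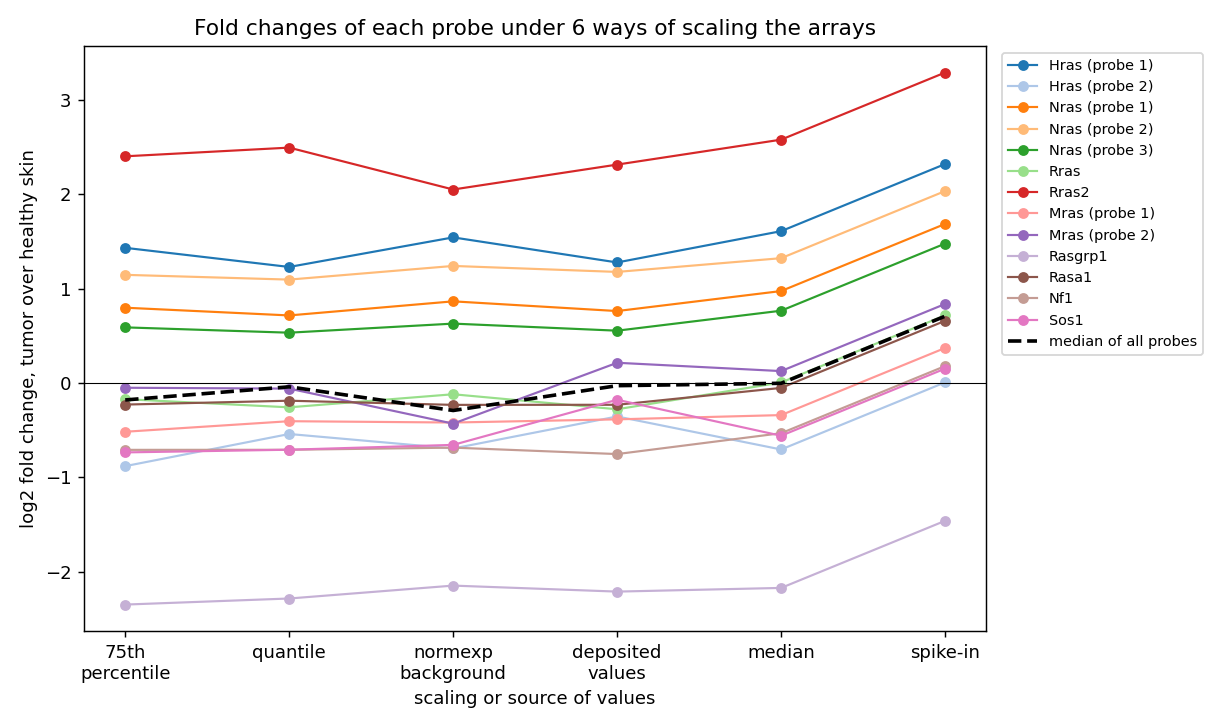
Log2 difference, tumor minus healthy skin (vertical axis), of each tested probe under 6 scalings or sources of values (horizontal axis); the dashed line is the median of all probes, which was -0.18 with the 75th percentile and 0.71 with spike-in controls. Rras2 lies between 2.05 and 3.29 and Rasgrp1 at -1.46 or below throughout.

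The genes whose profile over the 6 arrays lay nearest to each member with a called probe were found by the root mean square difference of centred log2 signals. For Rras2 it was Vmp1 (0.132), which the array carries as Tmem49 and which acts in autophagy. For Rasgrp1 it was Lims2 (0.0877), an adaptor of cell adhesion sites. For Nras the brightest probe was used, which is probe 1 and did not pass. Its nearest gene was Trappc5 (0.0556), a subunit of a vesicle tethering complex. These are descriptions over 6 arrays that share their group structure, with no test.

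The 7 lists of other Ras pathway genes held 89 genes, of which 83 were tested with 1 probe per gene. In limma 6 were higher and 6 lower, which is 14.5%, beside 25.9% of all 24764 genes tested, 10.3% higher and 15.6% lower. The median difference of the 83 was -0.16, and that of all genes was also -0.16. The receptor adaptors (9 tested, median 0.10) and the other GTPase-activating proteins and brakes (11 tested, median -0.38) had no gene that passed in either direction. All 12 genes that passed kept their direction in every alternative that tested them, and of the 12 only Rasgrf1 and Rasd2 passed in every one that tested them.

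Of the 6 other exchange factors, 1 was lower and none higher. Rasgrf1, best known in neurons, was not well above background in any tumor. It was -5.62, -6.95 and -6.50 in tumors, against -2.85, -2.43 and -0.95 in healthy skin. Taking the dimmest signal well above background in place of the tumor values, it was 17.7-fold lower in tumors. That value is no lower limit, since some alternatives gave smaller differences. Rasgrf1 had a limma adjusted p of 0.00273. It passed under all 17 alternatives, but the fitted difference ranged from -5.41 to -1.74, the smallest in size with normexp background correction, and it was -1.95 in the deposited values. Skeletal muscle and adipocyte markers were lower in the same samples, and their part in this was not tested.

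Downstream of Ras, 1 of 12 kinases and scaffolds of the Raf cascade passed. Map2k1, the kinase MEK1, gave 3.34, 3.08 and 3.05 in tumors, against 1.37, 1.27 and -0.98 in healthy skin. Every tumor lay above every healthy skin sample, and healthy skin 3 was far the lowest. It rose by 2.60 ± 0.62, or 6.07-fold, with a limma adjusted p of 0.0217, and by 1.84 without healthy skin 3. The call was lost without tumor 1 or without tumor 2, at a limma adjusted p of up to 0.0642.

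Of 15 other effectors, 1 rose and 2 fell. Rassf1, a Ras-association domain protein, rose by 1.15, or 2.22-fold, with a limma adjusted p of 0.0248. Plce1, a phospholipase C that binds Ras, gave -5.79, -5.94 and -4.58 in tumors, against -3.03, -3.03 and -3.98 in healthy skin, and was well above background on 1 of 3 tumor arrays. Its fitted difference was -2.09 (limma adjusted p 0.0168), and it ranged from -2.52 to -0.70 over the alternatives. Tiam1, an exchange factor for Rac, fell by 1.64 (limma adjusted p 0.0356). These calls were lost in 9 of 18, 8 of 17 and 6 of 18 alternatives for Rassf1, Plce1 and Tiam1. Of 10 genes of Ras lipid processing, which attach Ras to membranes, Fntb, a subunit of farnesyltransferase, rose by 1.16 (limma adjusted p 0.0461) and no other gene passed, with a median of 0.49 for the list. The Fntb call was lost in 11 of 18 alternatives.

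Of 20 other small GTPases of the Ras family, 3 rose and 3 fell, with a median of 0.28. Rap2b rose by 1.44, or 2.72-fold (limma adjusted p 0.0203), a call lost in 5 of 18 alternatives. Ralb, a target of Ras through its exchange factors, rose by 1.23, or 2.34-fold (limma adjusted p 0.0465), a call lost in 9 of 18. Rasd2 gave -2.88, -2.33 and -2.94 in tumors, against 0.53, 1.47 and 0.46 in healthy skin, and fell by 3.54 on the log2 scale, 11.6-fold lower, with a limma adjusted p of 0.00121. Diras2, well above background on 2 of 3 tumor arrays, was 9.80-fold lower (limma adjusted p 0.0154), a call lost without tumor 1. The other 2 that passed were Rit1, which was 2.01-fold higher and lost its call in 12 of 18 alternatives, and Gem, which was 2.93-fold lower and lost it in 5 of 18, and both are named here after their values were seen.

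**Figure D5:**
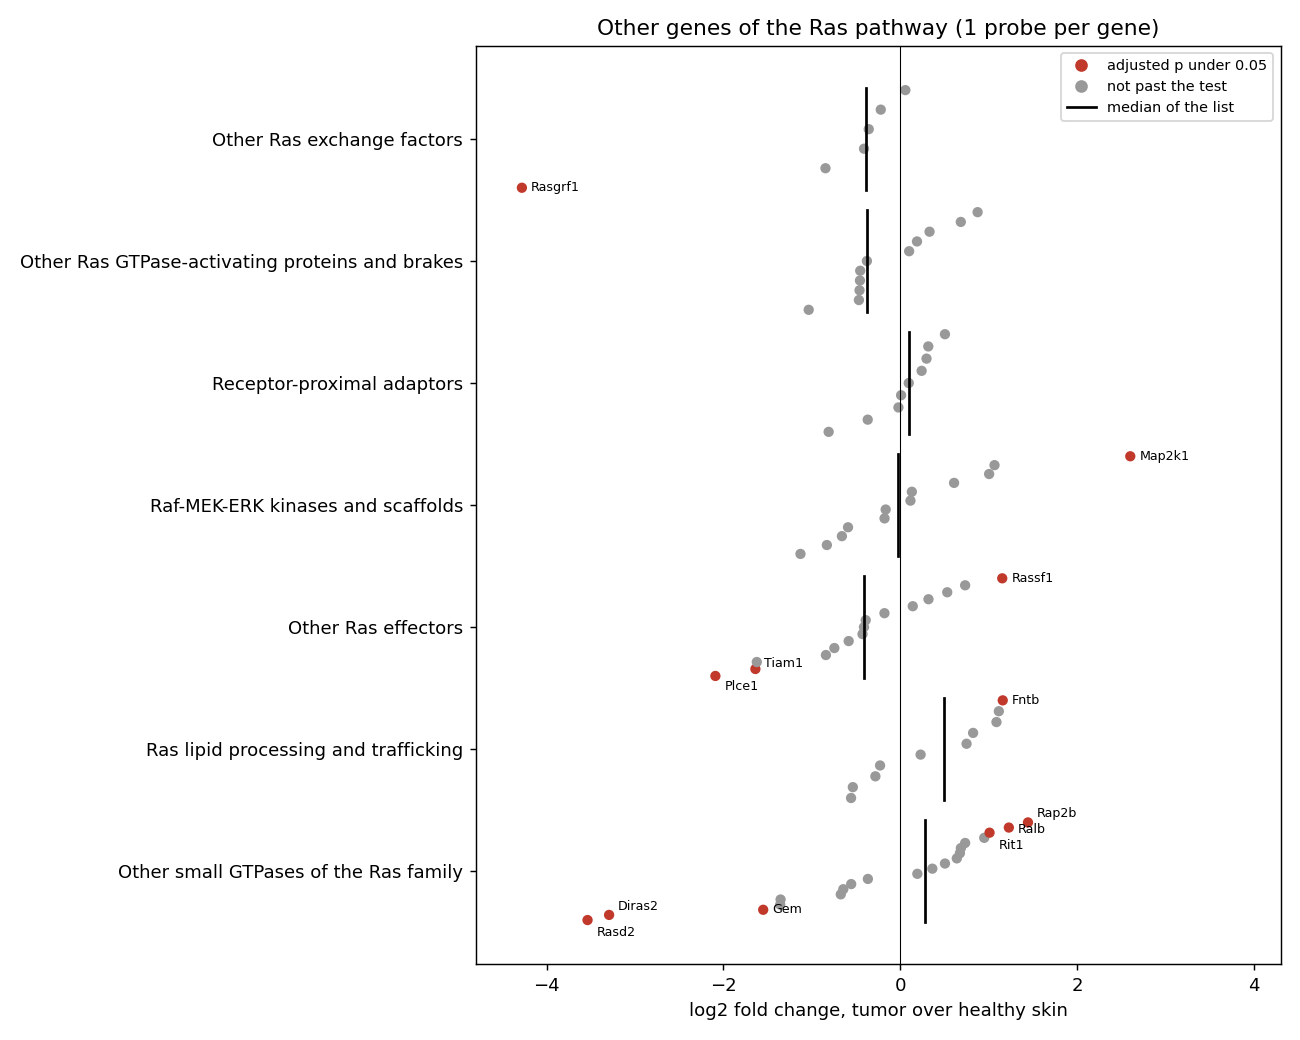
Log2 difference, tumor minus healthy skin (horizontal axis), of the 83 tested genes in 7 pathway lists (1 point per gene, 1 probe per gene); red marks an adjusted p under 0.05 and vertical bars the median of each list. The 12 red points split into 6 on each side of 0, and Rasgrf1, at -4.28, was not well above background in tumors.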

How the data were processed

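RNA was hybridised to 1-colour Agilent arrays, 3 tumors and 3 healthy skin samples, grouped by their labels. The deposited scanner files hold intensity values, which the authors extracted with Feature Extraction 10.7.3.1, per the file headers, on an mm9 array design. The series table that the authors deposited, on a log2 scale with a normalization not given in the sources used here, served as an alternative; its column medians lay between 6.33 and 6.35. The submitters' processing notes name limma without a version.

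Processed signals were scaled to each array's 75th percentile, log2 transformed, and spots of 1 probe averaged. Control spots were left out, as were 180 of 55681 probes with an array whose spots were all outliers. No spot was saturated. Probes well above background on at least 3 arrays (34297) were fitted with limma 3.58.1 in R 4.3.3 (lmFit, eBayes) without covariates, with Benjamini-Hochberg adjustment over all tested probes. Gene lists used the brightest tested probe per gene (24764 genes). For genes not well above background in a whole group, the fold used the lowest signal well above background on each array in place of that group's values. The number of arrays limits the precision. On simulated data of 34297 probes the fit recovered 0, 10, 27 and 37 of 50 changed probes at log2 sizes of 1, 2, 3 and 4. The simulation changed only these few probes, while 26.0% of the probes were called in the data. Adjusted p-values depend on how many probes change, so these counts do not show how many real changes the fit would recover.

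The members and lists were chosen with earlier results of these data known. Named genes were all members, and up to 2 called genes with the largest rise and 2 with the largest fall in each list. The nearest profile was also named per member with a called probe, by its brightest probe. The alternatives changed scaling, background correction, filter, variance model, weights, blocks or arrays. Replicates were numbered in accession order. Same-numbered samples' deviations correlated at 0.0908, 0.128 and -0.0655, so the numbers were not taken to pair samples.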

Additional observations from a re-analysis of the deposited data

How the results depend on the processing

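The 13 member probes were recomputed under up to 19 alternatives, which gave 241 values. Of these 206 kept their direction and side of the threshold, 10 lost a call, 9 gained one and 16 changed sign. Rras2 kept its call throughout. Every sign change was of a difference that had not passed: with spike-in scaling Hras probe 2 was 0.0064, Rras 0.72, Mras probe 1 0.37, Mras probe 2 0.84, Rasa1 0.66, Nf1 0.18 and Sos1 0.15, and with median scaling Rras was 0.0050 and Mras probe 2 0.13. Mras probe 2 was also 0.21 in the deposited values, 0.043 with array weights, 0.18 with slide row as a block, 0.10 without healthy skin 1 and 0.22 without tumor 1 and healthy skin 3 together, where Mras probe 1 was 0.20. The Mras probe difference was 0.012 with normexp, against -0.47. The cause of these changes was not tested.

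All probes gave 8922 calls, and 3192 with spike-in scaling, 4531 without the detection filter and 13507 with array weights. The members gave 3 calls, and 1 with spike-in scaling, 5 with array weights and 5 with slide row as a block. The pathway lists gave 12, and 5 with spike-in scaling, 7 without the filter, 23 with array weights and 19 with slide row as a block. Leaving out 1 array at a time gave 5155 to 7768 calls over all probes, 2 to 3 among members and 2 to 14 in the lists, the lists' lowest counts being 2 without tumor 1, 3 without tumor 2 and 5 without healthy skin 2. Leaving out 1 array gave differences between the Hras probes of 1.84 to 2.68, and of -0.29 to 0.33 for Mras probe 2.

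With the replicate block there were 7591 calls over all probes; Nras probe 2 lost its call (adjusted p 0.0601), Hras probe 1 gained one (0.0326), and no other member's call changed. Slide row as a block leaves healthy skin 3 alone against the 3 tumors. Signal over background limits Sos1 and Mras probe 2, which were well above it on 4 of 6 arrays.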
